A study of Mus musculus with 12 samples.

Results

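Day 3 was compared with day 1 of Esrrb depletion in Esrrb_R, a mouse embryonic stem cell (ESC) line, with Dox absent on both sides. The comparison used every array titled day 1 or day 3, which gave 6 of the 12 arrays of the series, 3 for each day, and 19938 genes, the same number as in the whole series. Esrrb_R is a rescue clone of the AINV15 line that carries rtTA, and in it a short hairpin RNA (shRNA) silences endogenous Esrrb while an shRNA-immune copy is expressed only with doxycycline (Dox). All cultures of the series shared the shRNA and the transgene. Cells had 1 µg/ml Dox at day 0, and at days 1, 3 and 5 they had been without Dox for that many days, in serum with Lif, on gelatin without feeder cells. The line is 1 clone and is maintained on mouse embryonic fibroblasts between experiments. No array followed cells kept with Dox over the same days, so later effects of Esrrb loss and time in culture cannot be told apart.

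RNA of the cultures was hybridised to Affymetrix Mouse Gene 1.0 ST arrays, and every value below is a log2 signal as the authors normalized it. A difference of 1 on this scale is 2-fold, and the signals of a gene can be compared between arrays but do not rank genes against one another. The medians of the 12 arrays lay between 6.92 and 7.05. Arrays of the same day correlated across all probe sets at r = 0.9939 to 0.9948 for days 1 and 3, and day 1 arrays correlated with day 3 arrays at 0.9877 to 0.9904. No array of days 1 and 3 stood apart. Genes were tested with limma in 1 model of the 12 arrays, and a gene was said to rise or fall when its p-value was under 0.05 after Benjamini-Hochberg adjustment for the 19938 genes.

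Esrrb is an orphan nuclear receptor that binds DNA next to Oct4, Sox2 and Nanog and keeps ESCs in the naive state, that of the epiblast before implantation. Cells that leave this state pass through a primed state, like the epiblast after implantation, before they form mesoderm, endoderm or ectoderm. The naive state is marked by factors such as Klf4, Nr0b1, Tbx3 and Zfp42, whereas the primed state is marked by Fgf5, Zic2 and the miR-302 cluster. The day 1 to day 3 interval asks what continued to change after the first day of Esrrb loss.

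Between days 1 and 3, 1834 genes rose (9.2% of those tested) and 2317 fell (11.6%), together 20.8%. Most changes were small, with a median absolute difference of 0.33 among the genes called. More than 2-fold changes were called for 40 genes that were higher (0.201%) and 82 that were lower (0.411%). All 3 day 3 arrays lay above all 3 day 1 arrays for 18.8% of genes, and all lay below for 21.6%. The median difference of all genes was -0.003. For comparison, 6.45% of genes rose and 4.48% fell between days 0 and 1, and 13.0% rose and 12.2% fell between days 3 and 5. These intervals share arrays with the one described here, so their values are given only side by side.

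Cell type was checked with 8 markers of ESCs. Pou5f1 (Oct4), the factor that defines pluripotent cells, read 12.43, 12.38 and 12.51 at day 1 and 12.30, 12.35 and 12.29 at day 3, which did not pass the test (difference -0.12, adjusted p = 0.25). Sox2 differed by -0.16 (adjusted p = 0.086) and Tdgf1, a Nodal co-receptor, by -0.01 (adjusted p = 0.90). Both days thus carried the signals of pluripotent cells. Of the 8 markers, 4 fell (Zfp42, Esrrb, Dppa5a and Fgf4) and 1 rose (Nanog).

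Esrrb itself continued to fall. It read 9.09, 9.15 and 9.16 at day 1 and 8.20, 8.07 and 8.34 at day 3, a difference of -0.93 (standard error (SE) 0.07, adjusted p = 3.9e-06), and the arrays of the 2 days did not overlap. Its mean was 11.59 at day 0 and 8.19 at day 5, so that the change to day 1 was -2.46 and the change after day 3 was -0.01 (adjusted p = 0.92). The probe set is not described as separating the transgene from the endogenous transcript.

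The miR-302 cluster, a subgroup of the microRNA list, had the largest median difference of the 46 gene lists and their subgroups. The lists were chosen with earlier results of these data known, so this rank is only a description. The cluster holds 5 microRNA precursors transcribed together in ESCs and their primed counterparts. Its hairpins lie within 580 bases at chr3:127545228-127545807 (RefSeq, GRCm38.p6), inside the span of Larp7 and of the long noncoding RNA Gm51018. MicroRNAs choose their targets mainly through the seed, bases 2 to 8, and mature strands, 3p or 5p as named, are shown to compare the seeds of precursors that moved, with the seed in capitals. The sequences are from RefSeq.
miR-302b-3p, chr3:127545275-127545297, plus strand: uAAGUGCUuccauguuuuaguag
miR-302d-3p, chr3:127545665-127545687, plus strand: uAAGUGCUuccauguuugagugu
miR-302c-3p, chr3:127545406-127545427, plus strand: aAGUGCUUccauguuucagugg
miR-367-3p, chr3:127545779-127545800, plus strand: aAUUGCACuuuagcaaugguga
miR-363-3p, chrX:52741697-52741718, minus strand: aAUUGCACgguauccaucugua
miR-106a-5p, chrX:52742541-52742563, minus strand: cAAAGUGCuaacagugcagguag
miR-20a-5p, chr14:115044183-115044205, plus strand: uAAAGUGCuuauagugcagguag
miR-19b-3p: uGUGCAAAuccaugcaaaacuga
miR-302b and miR-302d have the same seed, and miR-302c has it shifted by 1 base. miR-367 shares its seed with miR-363, which lies on the X chromosome in another cluster. miR-106a and miR-20a share a seed, which overlaps that of miR-302b after a shift of 1 base, and miR-19b has a different one. miR-302a-3p was not printed.

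The arrays read the precursors or their primary transcript, not the mature microRNAs. Mir302a read 5.41, 4.35 and 4.53 at day 1 and 7.08, 6.58 and 6.98 at day 3, a difference of 2.12 (4.34-fold, SE 0.25, adjusted p = 7.9e-05). Mir302d rose by 2.11 (SE 0.17, adjusted p = 4.1e-06) and Mir302c by 2.11 (SE 0.19, adjusted p = 1.1e-05). Mir302b rose by 1.91 (SE 0.25, adjusted p = 0.00018), from 4.49, 3.72 and 4.48 to 6.34, 5.84 and 6.24. Mir367 rose by 1.90 (3.72-fold, SE 0.21, adjusted p = 4.8e-05), from 3.77, 3.88 and 3.60 to 5.79, 5.70 and 5.46. For each of the 5 the day 3 arrays lay above the day 1 arrays. Replicate 1 had the highest day 1 value for Mir302a, Mir302c and Mir302d. Between days 0 and 1 none of the 5 was called, with a median difference of 0.02. Between days 3 and 5 all 5 rose again, against 13.0% of all genes, with a median difference of 1.34. Larp7, in whose span the cluster lies, differed by 0.12 (adjusted p = 0.20).

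**Figure D1:**
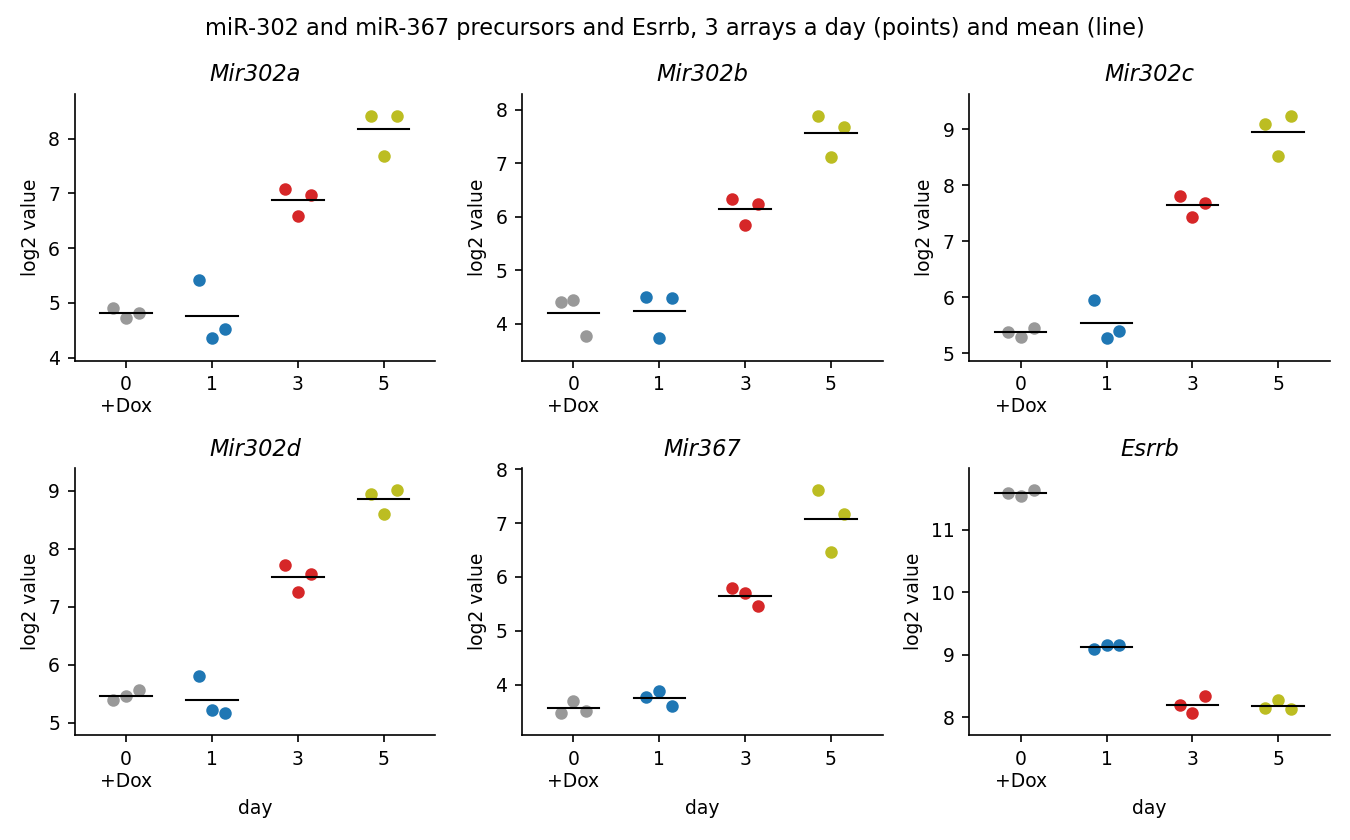
Log2 signal (y axis) of the miR-302 and miR-367 precursors and of Esrrb on the 12 arrays by day (x axis). Points are arrays, 3 a day, and lines are means. The precursors stayed level from day 0 to day 1 and were higher by 1.90 to 2.12 at day 3, while Esrrb was lower by 0.93.

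Mir363, which shares its seed with Mir367, read 6.57, 6.87 and 6.95 at day 1 and 7.68, 7.81 and 7.71 at day 3, a rise of 0.94 (SE 0.09, adjusted p = 2.6e-05). It had already risen by 1.95 between days 0 and 1, and it fell by 1.00 between days 3 and 5. Of its neighbours on the X chromosome, Mir106a rose by 0.51 (SE 0.13, adjusted p = 0.011), while Mir20b (0.37, adjusted p = 0.083), Mir19b-2 (0.11, adjusted p = 0.71) and Mir92-2 (0.07, adjusted p = 0.65) did not pass the test. Of the related miR-17 cluster on chromosome 14, Mir19b-1 fell by 0.41 (adjusted p = 0.0037), Mir20a fell by 0.36 (adjusted p = 0.022), Mir19a fell by 0.31 (adjusted p = 0.028) and Mir18 fell by 0.28 (adjusted p = 0.012), and Mir17 (-0.25, adjusted p = 0.12) did not pass the test. The call of Mir20a is lost without day 1 replicate 1 or 2 or day 3 replicate 2. The difference between the clusters was not tested. Mir17hg, the primary transcript of the cluster on chromosome 14, differed by 0.01 (adjusted p = 0.94). The hairpins and the host transcript are read by different probe sets.

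Over all 296 microRNA precursors measured, 33 were higher and 8 lower, against 9.2% and 11.6% of all genes. A region chosen after its values were seen held many of the rises. Meg3, a noncoding RNA of the imprinted Dlk1-Meg3 domain on chromosome 12, read 10.32, 10.29 and 10.30 at day 1 and 10.99, 11.16 and 11.21 at day 3, a rise of 0.81 (SE 0.08, adjusted p = 1.4e-05). Of 40 microRNA precursors within 300 kb after the start of Meg3, 16 rose and none fell, with a median difference of 0.26, and all 40 differences were above 0. Mir382 rose by 0.80 (SE 0.10, adjusted p = 9.1e-05), Mir376c by 0.85 (SE 0.13, adjusted p = 0.00055) and Mir300 by 0.61 (SE 0.09, adjusted p = 0.00049). These precursors are processed from 1 maternally expressed transcription unit and are not independent of one another. Rian, another noncoding RNA of the domain, differed by 0.09 (adjusted p = 0.67) and the paternally expressed Dlk1 by -0.15 (adjusted p = 0.25). Between days 3 and 5, Meg3 changed by -0.89 and 21 of the 40 precursors fell, against 12.2% of all genes. Of the other 251 precursors, 12 were higher and 8 lower between days 1 and 3.

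**Figure D2:**
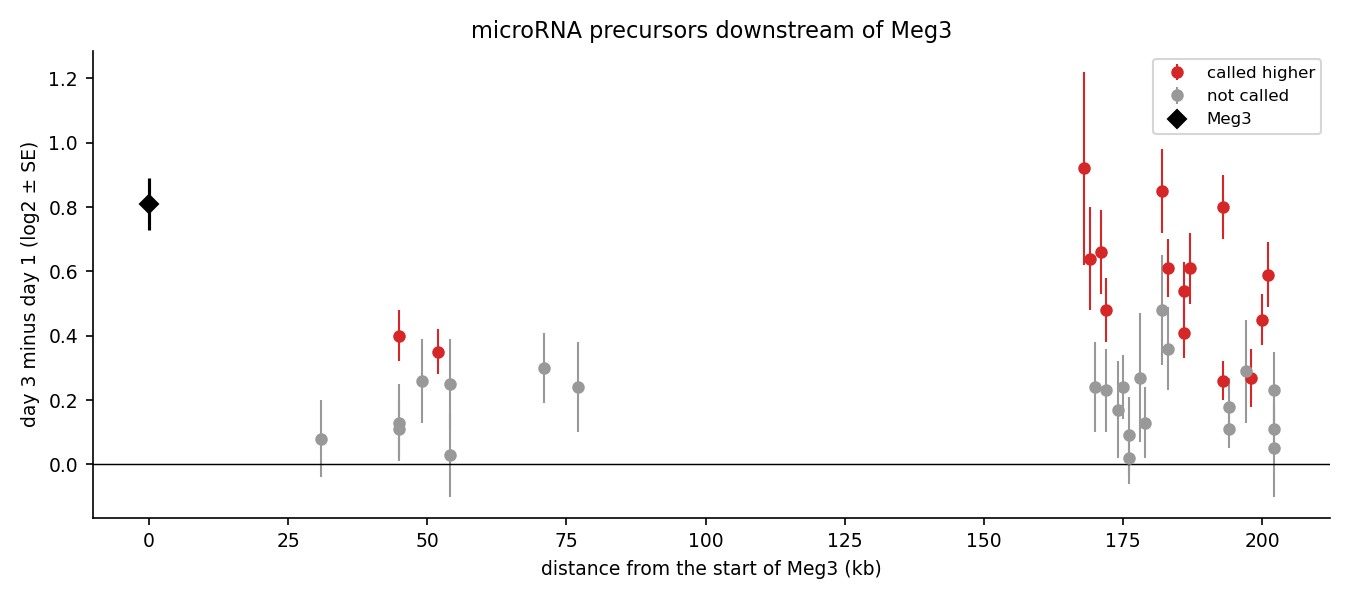
Difference between day 3 and day 1 (y axis, log2, with SE bars) of 40 microRNA precursors against their distance from the start of Meg3 (x axis, kb). The 16 called higher are red, the others grey and Meg3 is the black diamond. No precursor lies below 0, and those with the largest differences lie 168 to 201 kb from the start.

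Other genes with large rises came from several classes. Fndc3c1 had the largest rise of the 19938 genes, from 7.75, 7.55 and 7.57 to 9.73, 9.76 and 9.75 (2.13, 4.37-fold, SE 0.15, adjusted p = 2.3e-06). Kif1a, a kinesin that carries synaptic vesicle precursors along axons, rose by 1.73 (SE 0.08, adjusted p = 8e-08). Nes, the intermediate filament nestin of neural progenitors, read 7.57, 7.61 and 7.53 at day 1 and 8.85, 8.96 and 9.08 at day 3 (1.39, SE 0.14, adjusted p = 2.7e-05). Prom1, a membrane protein of neural and other progenitors, rose by 1.33. Nes had the largest rise of the neuroectoderm list. In that list 2 of 18 genes rose and 5 fell, against 9.2% and 11.6% of all genes. Of its 11 transcription factors none rose and 2 fell, with a lowest difference of -0.77. Mal2, an epithelial transport protein, rose by 1.42, Firre, an X-linked noncoding RNA, by 1.24, and Car14, a membrane carbonic anhydrase, by 1.22. Mcoln3, Mapk12, Armcx3, Ccng2 and St6gal2 rose by 1.15 to 1.23. Their later courses differed: Bhlhe41, a circadian repressor, rose by 1.36 to day 3 and changed by -1.56 to day 5, while Fndc3c1 rose by a further 0.38.

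The genes that fell most came from several classes. Ptgs2 (Cox2), which makes the precursor of prostaglandins, read 9.72, 10.04 and 9.72 at day 1 and 7.14, 6.92 and 7.49 at day 3, a difference of -2.64 (6.24-fold lower, SE 0.15, adjusted p = 4.1e-07). Lox, which crosslinks collagen, read 8.16, 8.35 and 8.05 and then 6.33, 6.04 and 6.14 (-2.02, SE 0.11, adjusted p = 3.9e-07). Bgn, the matrix proteoglycan biglycan, fell by 1.77, Tnc, tenascin C, by 1.72, and the membrane proteins Emp1 and Tm4sf1 by 1.76 and 1.50. Morc1, a germline chromatin factor, fell by 1.61, Platr8, a noncoding RNA of pluripotent cells, by 1.60, and Tfec, a factor of the Mitf family, by 1.57. Anxa1, annexin A1, changed by -1.54 to day 3 and by 2.56 to day 5, whereas Lox stayed low (-0.07 to day 5).

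The matrix genes among these falls belong to cells such as fibroblasts, so a list of fibroblast markers was read beside them. Lox is a member of that list, so the counts and summed level of the list are not separate from the fall of Lox. Of 22 fibroblast markers measured, 12 fell and 1 rose, against 11.6% and 9.2% of all genes, with a median difference of -0.28. The summed level of the list was 13.46 to 13.53 on the log2 scale at day 1, 12.90 to 13.01 at day 3 and 13.44 to 13.68 at day 5. Col1a2 read 9.30, 9.37 and 9.36 and then 8.18, 8.02 and 8.11 (-1.24, adjusted p = 3.6e-06), and Prrx1 fell by 1.09, Col5a2 by 0.84, Vim by 0.81 and Col1a1 by 0.79. Mmp2 rose by 0.45, and Thy1 differed by 0.31 (adjusted p = 0.053), Col6a1 by 0.00 and Pdgfrb by 0.07. Of other matrix markers, Dcn fell by 0.50 (adjusted p = 0.0087), Postn by 0.38 (adjusted p = 0.0075) and Col3a1 by 0.29 (adjusted p = 0.018), and Lum differed by -0.21 (adjusted p = 0.053). The part of fibroblasts carried over from maintenance in the falls of Lox, Bgn, Tnc, Ptgs2 and the collagens was not tested. In bulk samples, fewer cells of a type and less RNA per cell cannot be told apart. Of 10 macrophage and blood markers, 3 fell (Lyz2, Cd68 and Itgam), and 1 without day 1 replicate 2, day 3 replicate 2 or day 3 replicate 3. The list's summed level was 9.98 to 10.13 at day 1 and 9.77 to 9.87 at day 3.

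Naive pluripotency factors fell almost as a group. Of 21 measured, 18 fell and 1 rose, against 11.6% and 9.2% of all genes, with a median difference of -0.76. Between days 0 and 1, 16 of the 21 had already fallen, against 4.48% of all genes, with a median difference of -0.38. Nr0b1 (Dax1), an orphan nuclear receptor, read 11.60, 11.77 and 11.58 at day 1 and 9.89, 9.88 and 9.66 at day 3 (-1.84, 3.59-fold lower, SE 0.12, adjusted p = 1e-06). Zfp42 (Rex1) read 10.82, 10.84 and 10.70 and then 9.85, 9.78 and 9.83 (-0.97, SE 0.08, adjusted p = 4.3e-06). Gbx2 fell by 1.12, Nr5a2 by 1.05, Tbx3 by 0.83 and Tfcp2l1 by 0.60. Of the surface and signalling members, Tcl1 and Jam2 fell by over 1 and Pecam1 by 0.82. Klf4 fell by 0.36 (adjusted p = 0.0032), and it rose by 0.48 between days 3 and 5.

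Nanog went the other way. It read 11.23, 11.29 and 11.16 at day 1 and 11.44, 11.40 and 11.40 at day 3, a difference of 0.18 (SE 0.06, adjusted p = 0.047). The 3 day 3 arrays lay above the 3 day 1 arrays, but the call is at the threshold. It was lost when any 1 of the day 1, day 3 or day 5 arrays was left out. It was also lost with arrays centred on their medians and with the replicate number in the model. The adjusted p ran from 0.0058 to 0.18 over the alternatives. Nanog had fallen by 0.80 between days 0 and 1 and rose by 0.37 between days 3 and 5. Dppa3, the maternal factor Stella, and Prdm14 were the other naive genes that did not fall.

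**Figure D3:**
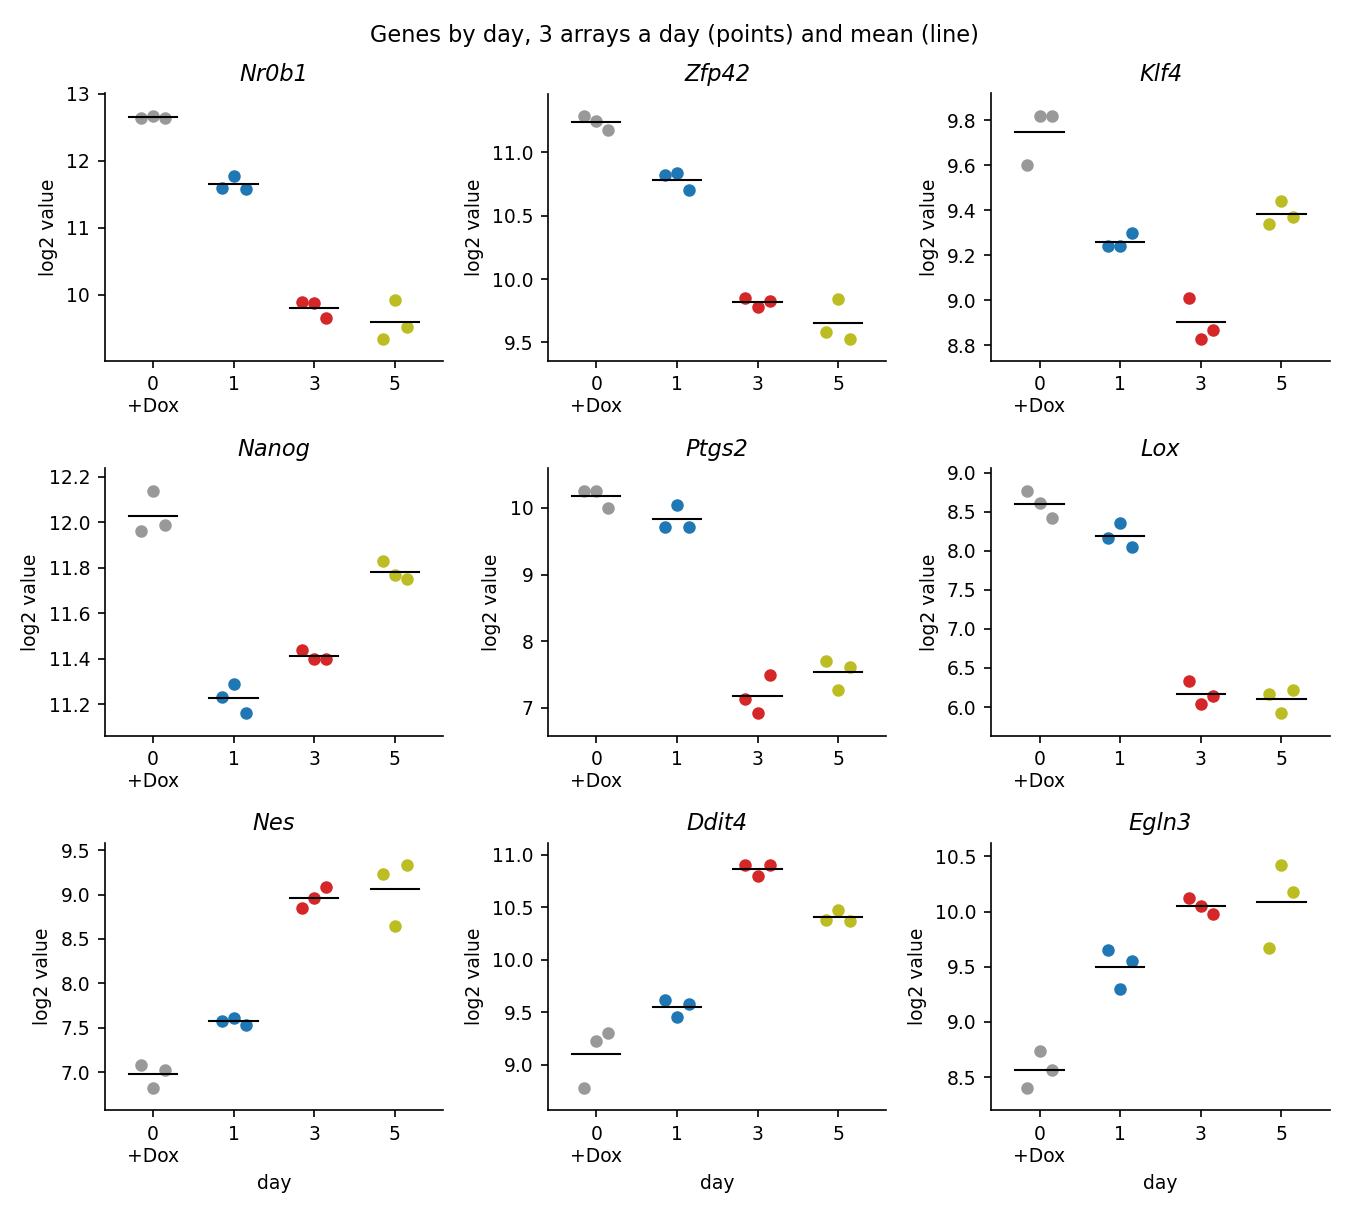
Log2 signal (y axis) by day (x axis) of 9 genes that fell or rose between days 1 and 3. Points are the 3 arrays of a day and lines are means. For each gene the day 1 and day 3 arrays do not overlap, and Klf4 and Nanog change direction between days.

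General pluripotency genes were divided. Of 22 measured, 12 fell and 1 rose (median -0.26), against 11.6% and 9.2% of all genes. Dppa2, which keeps germline genes open, read 11.27, 11.30 and 11.30 at day 1 and 10.27, 10.24 and 10.10 at day 3 (-1.09, adjusted p = 1.1e-05). Its partner Dppa4 fell by 0.57, the methyltransferase cofactor Dnmt3l by 0.73 and the ubiquitin ligase Rnf125 by 0.86. Dppa2, Dppa4 and Dnmt3l had not fallen between days 0 and 1 (-0.06, 0.09 and 0.57) and continued down to day 5 (-0.79, -0.99 and -0.89). Pou5f1, Sox2, Sall4 (-0.04) and Lin28a (0.14) did not pass the test.

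Primed epiblast genes moved in both directions, 9 up and 8 down of 24. Zic2 read 9.19, 9.14 and 9.16 at day 1 and 9.90, 10.12 and 9.78 at day 3 (0.77, SE 0.12, adjusted p = 0.00057), and Fgf5, the Fgf ligand of the epiblast after implantation, rose by 0.76. Dnmt3b rose by 0.39, while Dnmt3a fell by 0.59. Lef1, a nuclear partner of beta-catenin, fell by 0.85 after a rise of 0.90 to day 1. Otx2 (0.24) and Pou3f1 (-0.03) did not pass the test. Of the lineages that follow, the primitive streak had 0 higher and 2 lower of 20 genes and mesoderm 1 higher (Tagln, 0.40) and 6 lower of 19. Neuroectoderm had 2 higher and 5 lower of 18, and primitive and visceral endoderm 0 higher and 5 lower of 21, against 9.2% higher and 11.6% lower of all genes. These small counts rest on single arrays in part. The call of Tagln is lost without any 1 of the day 1 arrays or day 3 replicate 2 or 3. The neuroectoderm genes that rose became 1 without day 1 replicate 1 or 2 or day 3 replicate 1 or 3, and those that fell became 3 without day 1 replicate 1 or day 3 replicate 2. The endoderm genes that fell became 3 without day 1 replicate 2 or day 3 replicate 3. Bmp4, a mesoderm-inducing ligand, fell by 1.20, and Eomes, a streak factor, differed by -0.53 (adjusted p = 0.075).

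Fgf and Lif pathway genes and Bmp and Nodal ligands fell more often than they rose. The counts stand beside 9.2% higher and 11.6% lower of all genes. In the Fgf pathway, in which a ligand activates Erk and the feedback genes report its activity, 16 of 29 genes fell and 3 rose. Of 10 ligands 7 fell, among them Fgf4 by 0.45 and Fgf18 by 0.59, and 1 rose, Fgf5. The receptor Fgfr2 fell by 0.48 while Fgfr1 rose by 0.35. Of 14 feedback genes 8 fell, and Spry4 read 9.76, 9.86 and 9.86 at day 1 and 8.82, 9.04 and 9.05 at day 3 (-0.86, adjusted p = 2.2e-05). In the Bmp and Nodal pathway, 6 of 15 ligands fell and none rose, with Inhba, an activin subunit, at -1.28 and Nodal at -0.56, whereas 3 of 11 receptors rose. The 4 rises of the whole pathway (9.52%) were near the share of all genes. They became 2 without day 1 replicate 1 or 2 or day 3 replicate 2. Of 14 Wnt targets 4 fell (28.6%) and 1 rose (7.14%), and Dkk1, a secreted Wnt inhibitor, fell by 1.22. Of 39 Wnt ligands, receptors and antagonists 8 rose (20.5%) and 3 fell (7.69%). The receptors Fzd3 and Fzd2 rose by 0.73 and 0.70 and the antagonists Sfrp2 and Frzb by 0.80 and 0.95, while the ligand Wnt5a fell by 0.79. Of 21 Lif and Stat3 genes, 9 fell and 1 rose. The one that rose was Pim2, a kinase, by 0.91. Of 12 target genes 6 fell, of 4 receptors 2 and of 5 transducers 1. The list shares Gbx2 and Klf4 with the naive list, so its count is not separate from the fall of naive genes. Over the alternatives 6 to 9 genes of the list fell.

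Genes of epithelia rose together. Of 26 measured, 13 rose (50.0%) and 3 fell (11.5%), against 9.2% and 11.6% of all genes, with a median of 0.24. The 13 were junction genes (9 of 15 measured), keratins (3 of 5) and Esrp1, a splicing regulator. Cldn7, a tight junction protein, read 8.35, 8.31 and 8.51 at day 1 and 9.68, 9.45 and 9.46 at day 3 (1.14, SE 0.08, adjusted p = 2.1e-06). Krt19 rose by 0.90, Esrp1 by 0.76, Ocln by 0.69 and Cdh1, the cadherin of epithelia, by 0.31. The 3 that fell were transcription factors, Grhl2 (-0.61), Grhl3 (-0.46) and Elf3 (-0.40). In the transition list, 7 of 9 epithelial genes rose, while the mesenchymal factors Zeb1 and Snai2 fell by 0.84 and 0.52 and Snai1 was higher by 0.24. The transition list shares genes with the epithelium list, such as Cldn3, so their counts are not separate. Of 28 actin cytoskeleton genes 12 rose, 10 of them among 16 actin binding proteins, led by Cnn1, a calponin (1.31), and Myh9 (0.57). Without day 1 replicate 1, or without day 3 replicate 3, the 12 became 6. In the same list the smooth muscle actins Acta2 and Actg2 fell by 1.07 and 0.69.

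**Figure D4:**
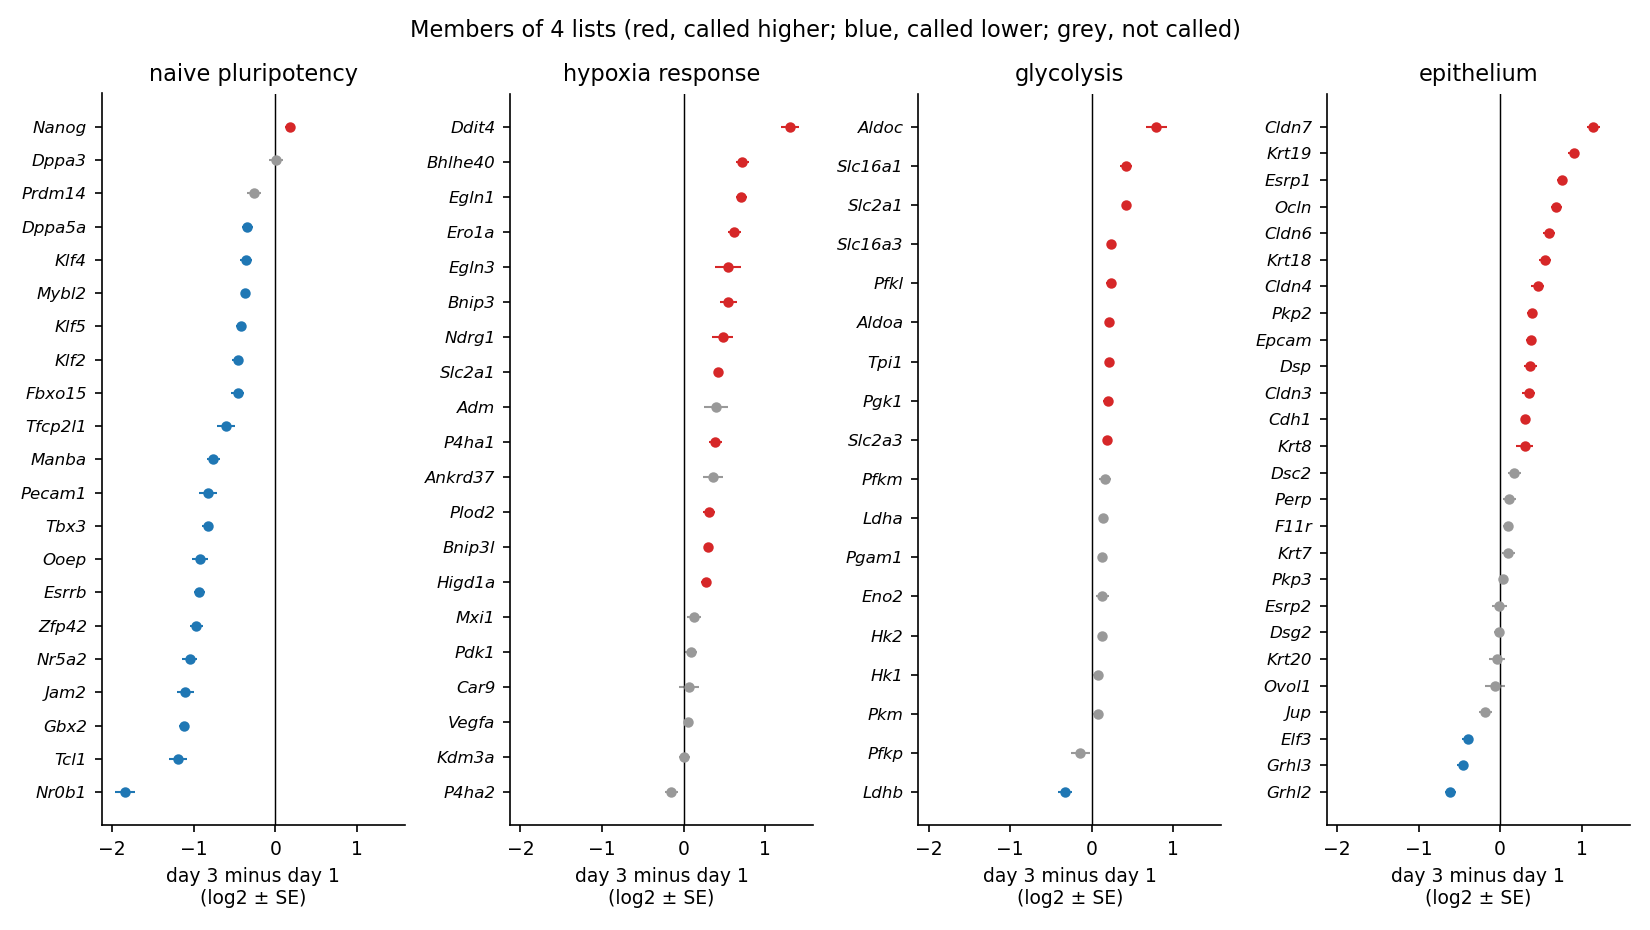
Difference between day 3 and day 1 (x axis, log2, with SE bars) of the members of 4 lists. Red genes were called higher, blue lower and grey were not called. Naive genes lie almost wholly below 0 and hypoxia genes almost wholly above it.

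Hypoxia and glycolysis genes rose more often than they fell. The response to low oxygen runs through Hif, which binds DNA at hypoxia response elements, and the genes it induces include glycolytic enzymes. Of 20 hypoxia genes, 12 rose and none fell (median 0.38), against 9.2% and 11.6% of all genes. Ddit4, an inhibitor of mTOR, read 9.62, 9.46 and 9.58 at day 1 and 10.90, 10.80 and 10.90 at day 3 (1.31, SE 0.11, adjusted p = 5.9e-06). The oxygen sensors Egln1 and Egln3 rose by 0.71 and 0.55 and Ero1a, an oxidase of the endoplasmic reticulum, by 0.62. All 4 glucose and lactate transporters rose, Slc2a1 by 0.42, Slc16a1 by 0.42, Slc16a3 by 0.24 and Slc2a3 by 0.19, and the call of Slc2a3 is lost without day 1 replicate 3 or day 3 replicate 3 (adjusted p up to 0.059). Of 18 glycolysis genes 9 rose and 1, Ldhb, fell, and without day 1 replicate 2 the number that rose was 5. The 9 included the 4 transporters, and of 14 enzymes 5 rose and 1 fell. Slc2a1 is in both lists, so the counts are not wholly separate. The call of Ldhb is lost without day 1 replicate 1 or 3 or day 3 replicate 2 or 3. Between days 0 and 1, 12 of the 20 hypoxia genes had already risen, against 6.45% of all genes. Between days 3 and 5, 6 hypoxia genes rose and 6 fell, against 13.0% and 12.2% of all genes. Over the same days 2 glycolysis genes rose and 10 fell. Oxygen was not measured, and the cause of these changes was not tested.

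Promoters of 3 of these genes are shown because each holds the hypoxia response element core. The 250 bases before the start of each gene were read from RefSeq (GRCm38.p6), 5′ to 3′ along the gene, and searched for ACGTG on both strands (CACGT on the other), with matches in capitals.
Egln1, chr8:124949255-124949504, minus strand: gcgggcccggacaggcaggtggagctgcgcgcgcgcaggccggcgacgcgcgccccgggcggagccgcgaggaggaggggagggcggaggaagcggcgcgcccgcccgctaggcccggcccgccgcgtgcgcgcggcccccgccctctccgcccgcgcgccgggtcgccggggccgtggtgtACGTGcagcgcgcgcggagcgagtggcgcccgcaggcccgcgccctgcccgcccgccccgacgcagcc
Ddit4, chr10:59951771-59952020, minus strand: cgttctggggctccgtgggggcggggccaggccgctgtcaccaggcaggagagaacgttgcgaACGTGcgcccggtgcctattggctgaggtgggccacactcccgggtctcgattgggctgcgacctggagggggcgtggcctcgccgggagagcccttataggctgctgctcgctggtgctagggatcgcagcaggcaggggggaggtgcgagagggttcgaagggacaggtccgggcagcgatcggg
Bnip3, chr7:138909507-138909756, minus strand: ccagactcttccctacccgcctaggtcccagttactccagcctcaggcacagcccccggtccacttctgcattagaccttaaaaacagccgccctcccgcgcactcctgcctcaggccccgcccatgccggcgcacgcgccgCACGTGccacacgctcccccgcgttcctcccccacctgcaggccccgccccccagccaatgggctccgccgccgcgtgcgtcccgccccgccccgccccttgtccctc
The Bnip3 matches on the 2 strands overlap. Among 15614 genes with a window, 20.9% hold the core. The share was 23.5% of the genes that rose and 24.8% of those that fell. Of the hypoxia genes 12 of 16 with a window hold it, and of those that rose 7 of 8. Other lists had high shares too, such as 12 of 18 germline genes, most of which did not rise, so that a match is only a description. AAGGTCA, the half-site that Esrrb and related receptors bind, was in a window of 3.99% of the 15614 genes and of none of the 13 naive genes with one. This says only that these letters are not in this window.

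Genes of ribosome production fell more often than all genes, of which 11.6% fell and 9.2% rose. Of 33 nucleolar ribosome biogenesis genes 19 fell and none rose (median -0.20), and of 73 mitochondrial ribosomal protein genes 36 fell and none rose (median -0.20). The differences were small: Bysl changed by -0.53 and Imp4 by -0.51, with Imp4 at 11.07, 11.10 and 11.11 at day 1 and 10.58, 10.60 and 10.56 at day 3 (adjusted p = 1.3e-05). Myc, which drives ribosome production and is an immediate early gene, fell by 1.07 (SE 0.10, adjusted p = 1.5e-05), from 10.35, 10.43 and 10.35 to 9.11, 9.38 and 9.42. In heat shock and unfolded protein genes, 9 of 20 fell and none rose, led by Hspb1 (-1.01) and Hsph1 (-0.51). The counts for mitochondrial ribosomal proteins and heat shock depend on single arrays. Without day 1 replicate 1 or 3, or day 3 replicate 2 or 3, the former is 19 to 22, and without any 1 of these or day 1 replicate 2 the latter is 5.

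Chromatin and germline genes made up the last groups. The DNA demethylases Tet2 and Tet1 fell by 0.86 and 0.45, and 7 of 16 DNA methylation genes fell and 2 rose in all. Zfp57, which protects imprints, read 11.81, 11.88 and 11.77 at day 1 and 10.95, 10.83 and 10.89 at day 3 (-0.93, adjusted p = 8.4e-06). Of 24 imprinted genes 6 rose, Meg3, Sgce (0.74), Grb10 (0.65) and Peg3 (0.43) among them, and 4 fell, against 9.2% and 11.6% of all genes. Of 22 germline and meiosis genes 7 fell (31.8%) and 2 rose (9.09%, near the share of all genes). Hormad1 fell by 1.14 and Dazl by 0.79, whereas Sycp3, a part of the synaptonemal complex, read 9.03, 8.99 and 8.78 at day 1 and 10.08, 10.05 and 9.89 at day 3 (1.07, adjusted p = 0.00021). Sycp3 had fallen by 0.73 between days 0 and 1 and changed by -1.17 between days 3 and 5.

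Several genes changed direction at day 1. Kit, the stem cell factor receptor, read 9.41, 9.56 and 9.40 at day 1 and 10.35, 10.22 and 10.24 at day 3 (0.81), after -0.60 between days 0 and 1. Cyp26a1, which degrades retinoic acid, changed by -0.92 and then 0.69, and Met, the hepatocyte growth factor receptor, by -0.48 and then 0.63. In the other direction, Irgm1, an interferon-induced GTPase, changed by 1.49 and then -0.97, Wt1 by 1.10 and then -0.73, and Nlrc4, an inflammasome protein, by 0.86 and then -1.35. Both differences of such a gene use the day 1 arrays, so an array error there would move them in opposite directions.

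**Figure D5:**
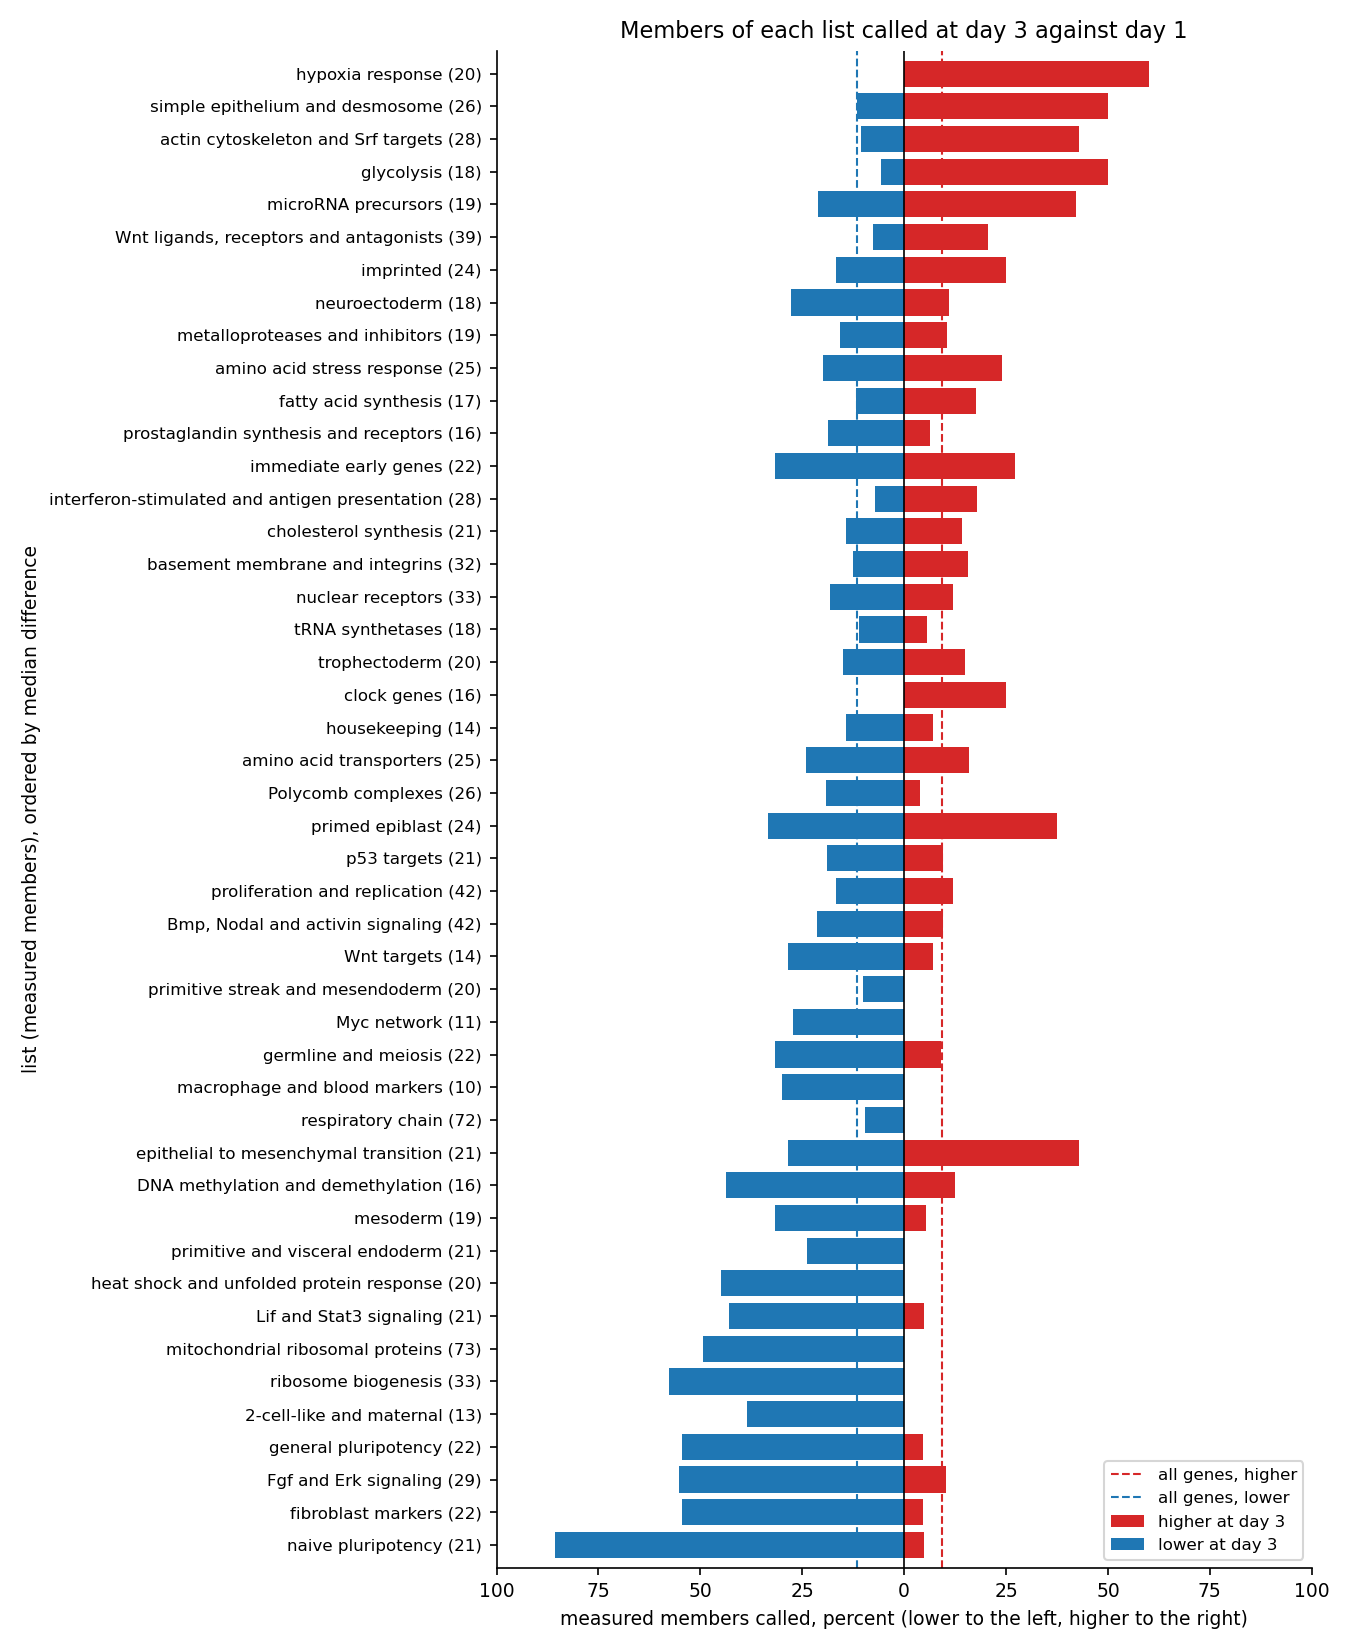
Percent of the measured members of 46 gene lists called higher (red, to the right) or lower (blue, to the left) at day 3 than at day 1 (x axis), ordered by the median difference, with the number measured in brackets. Dashed lines mark all genes, 9.2% higher and 11.6% lower. Naive pluripotency has the largest share lower and hypoxia response the largest share higher.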

How the data were processed

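Gene expression of 3 biological replicates on each of 4 days was read on 12 Affymetrix Mouse Gene 1.0 ST arrays. Normalization was by the authors, with Robust Multichip Average (RMA) in Expression Console (version not given in the sources used here) and the deposited values are log2 signals, 1 per probe set. Of 35557 probe sets, 21789 had 1 gene symbol in the platform annotation, and these were averaged per symbol to 19938 genes. No filter or further normalization was applied.

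The test was limma's moderated one (version 3.58.1, under R 4.3.3), with a mean per day, 8 residual and 4.63 prior degrees of freedom, Benjamini-Hochberg adjustment over all genes and 0.05 as the threshold. An exact two-sided permutation test of a single gene, with 3 arrays a day, cannot go below p = 0.1. The fit was checked on simulated data. Summaries used pandas 2.3.3 and numpy 2.4.6, and plots matplotlib 3.10.9, all under Python 3.11.15. The number of arrays limits the precision.

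The members and the 46 lists (1018 genes matched) were chosen with earlier results of these data known. Genes named were Esrrb and the core factors of the paper, the 20 largest rises and falls with no overlap (clone symbols left out), the 6 members at most per list that had the lowest adjusted p, plus up to 3 called the other way, and up to 10 genes a direction that had changed oppositely to day 1. Other genes were named after their values were seen. Sequences are from RefSeq tables. Alternatives were the days alone, a replicate block, other normalizations, a robust variance, a filter on dim genes, other probe set rules, stricter thresholds and leaving out each array.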

Additional observations from a re-analysis of the deposited data

How the results depend on the processing

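Counts of genes moved by less than 1.5 times under every refit. Between 1380 and 1935 genes were higher and between 1615 and 2397 lower when 1 array was left out, and Esrrb fell by between 0.86 and 1.00 over all alternatives (adjusted p at most 0.00018). With quantile normalization repeated, 39.1% of the calls were higher and with arrays centred on their medians 38.1%, against 44.2%. Stricter thresholds moved the counts: Bonferroni with over 2-fold left 36 genes higher and 76 lower, and a log2 change of over 0.5 beside the adjusted p left 369 and 467. The deviations of same-numbered arrays of days 1 and 3 correlated at 0.071, 0.003 and 0.039, and those of other-numbered arrays at -0.083 to 0.049. So few values cannot settle whether the replicate numbers pair the arrays. With the replicate block, 1651 genes were higher and 2097 lower, 3672 of the 4151 calls were kept, the heat shock list had 5 genes lower in place of 9, and Nanog lost its call (0.18, adjusted p = 0.063). Of 290 called genes named by the rule, 245 kept their call in every alternative run for them and 0 values reversed. Without dim genes, Mir302b and Mir367 were not tested, and Mir302a, Mir302c and Mir302d kept their call. Signal over background limits the dimmest genes. Without day 1 replicate 1 or day 3 replicate 3, the actin list had 6 genes higher in place of 12.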

Other observations

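Outside the genes named above, 13768 probe sets had several symbols or none. With every probe set tested alone, 685 of them were higher and 466 lower at day 3 than at day 1. Clock genes had 4 of 16 higher, against 9.2% of all genes, led by Bhlhe41 and by Bhlhe40 (0.72) and Per3 (0.46). Among nuclear receptors other than Esrrb, Nr6a1, a receptor that represses Pou5f1, rose by 0.54 (adjusted p = 2.9e-05) and the retinoic acid receptors Rarg and Rara fell by 0.53 and 0.51. Cell cycle inhibitors moved apart, with Cdkn1b higher by 0.46 and Cdkn1c lower (it fell by 0.58). Prostaglandin genes included Pla2g4a, which releases the substrate of Ptgs2 and fell by 0.77, and the receptor Ptger3, which rose by 0.65 to day 3 and by 2.50 to day 5.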
